A study of Mus musculus with 8 samples.

Results

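The lysosomal enzymes and membrane proteins of the mouse testis were read from 31 named genes. Members were the probes, control spots left out, whose gene name in the array files was one of these symbols. Of the 31 genes, 30 had at least 1 probe, and they held 57 of the 41174 distinct probes on the array. All 30 entered the test beside the rest of the 23349 genes tested. Lipa, which encodes lysosomal acid lipase, had no probe under that name. The members fall into 5 roles: 11 glycosidases, 3 sulfatases, 6 lipid enzymes and lipid-binding proteins with Lipa among them, 6 proteases grouped with the thioesterase Ppt1, and 4 proteins of the lysosomal membrane.

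RNA of whole testicular cells was compared between wild-type (VRK1+/+) and Vrk1 mutant (VRK1-/-) male mice, with 4 biological replicates of each genotype and 1 single-colour Agilent array per replicate. The sources used here do not give the kind of Vrk1 allele, the strain, the age or which animals the replicates came from, so p-values measure the spread between these samples. No treatment is named in the labels. The samples are bulk RNA, in which fewer cells of a type and less RNA per cell cannot be told apart.

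Lysosomes are acidic compartments in which hydrolases break down glycans, lipids, proteins and sulfated polysaccharides. Most soluble hydrolases are made in the endoplasmic reticulum, are tagged with mannose 6-phosphate in the Golgi and are carried to the lysosome by receptors for that tag, and a proton pump of the membrane keeps the lumen acidic. In the testis, Sertoli cells take up the residual bodies that spermatids shed and the germ cells that die, and degrade them in lysosomes, while the acrosome of sperm holds several hydrolases of the same families.

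Vrk1 itself was lower by 2.26 and by 2.06 log2 units on its 2 probes in the mutant, without overlap between the genotypes, and its signal remained well above background in all 4 mutant samples. The 75th percentile of the signal was 680 to 790 on wild-type and 928 to 1124 on mutant arrays, and values below are log2 of the signal divided by that percentile. Of the spots, 73.2% to 77.5% lay well above background on wild-type arrays and 83.3% to 86.5% on mutant arrays. The array labels may place each genotype on a slide of its own, so for every difference below the slide and the genotype cannot be told apart.

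Of the 30 genes, 17 were higher in the mutant, 2 were lower and 11 did not pass the test (limma, Benjamini-Hochberg adjusted p under 0.05 over all genes tested). The called rises ran from 1.35-fold for Glb1 to 2.45-fold for Idua. Arsa and Lamp1 were the 2 that fell. As a share, 56.7% of the members were higher and 6.67% were lower, against 22.3% and 13.2% of all genes tested (35.5% in either direction). The median difference of the members was 0.54 log2 units, against 0.03 over all genes, and 27 of the 30 differences were above 0. With each array scaled to its median in place of the 75th percentile, the median over all genes moved from 0.03 to -0.18, and 10 members were higher and 3 lower, beside 14.1% and 28.7% of all genes. Under quantile normalization 19 members were higher and none lower, with 14.8% of all genes higher and 10.3% lower.

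The 17 genes that rose were split by how cleanly the genotypes separated. In 11 of them all 4 mutant arrays lay above all 4 wild-type arrays. In the other 6, Man2b1, Asah1, Smpd1, Lamp2, Ctsc and Ctsb, the ranges overlapped. Among all 30 members, called or not, 12 had every mutant array above every wild-type array, Cln3 among them, beside 21.9% of all genes tested. Mutant replicate 2 had the lowest mutant value for 25 of the 30 genes, and mutant replicate 1 had the highest for 16. Leaving out 1 array at a time left 8 to 19 genes higher: 8 without wild-type replicate 2, 9 without wild-type replicate 3, 9 without mutant replicate 1, 8 without mutant replicate 3 and 10 without mutant replicate 4. The share of all genes called higher in these 5 fits was 15.6% to 18.4%, and in the other 3 it was 21.0% to 22.5%. Neu1, Psap, Tpp1, Ppt1, Ctsz, Ctsd, Ids and Arsa passed in all 8 of these fits, and the other 11 called members lost the call in at least 1.

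**Figure D1:**
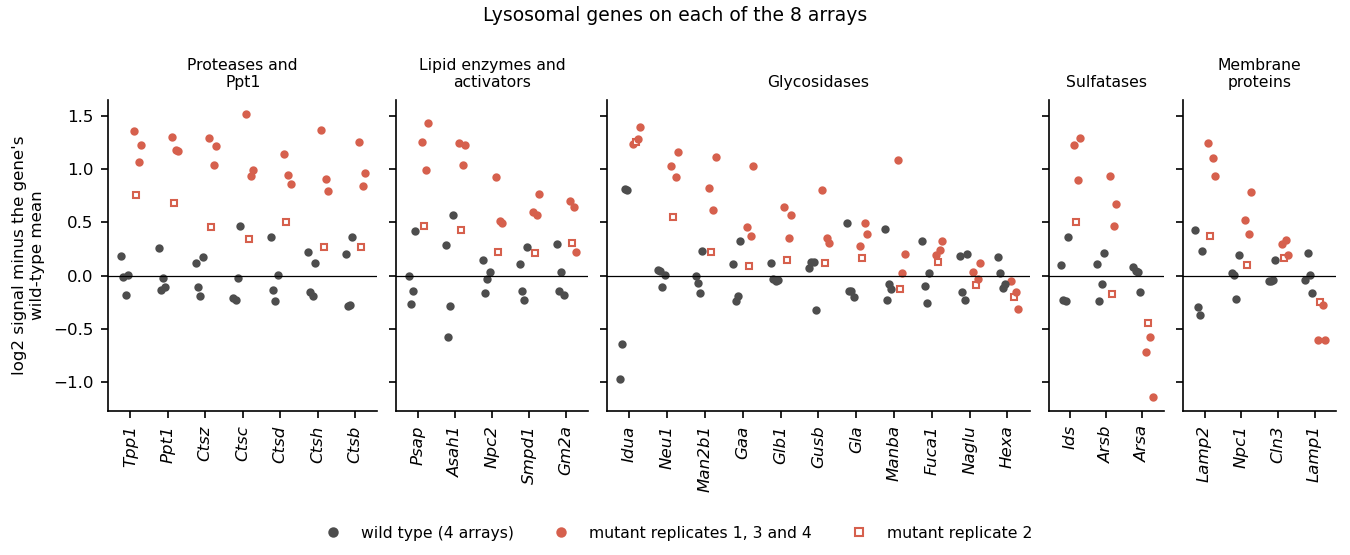
Log2 signal of the 30 tested lysosomal genes on each of the 8 arrays, minus the gene's mean over the 4 wild-type arrays, grouped by role. Dark points are wild-type arrays, filled red points are mutant replicates 1, 3 and 4, and open squares are mutant replicate 2, which had the lowest mutant value for 25 of the 30 genes.

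The proteases and Ppt1 moved together: 7 of 7 were higher, with a median difference of 0.95. Tpp1, a peptidase that cuts tripeptides from the ends of proteins, had log2 signals of 0.40, 0.20, 0.03 and 0.22 in wild-type replicates 1 to 4 and 1.56, 0.97, 1.28 and 1.43 in mutant replicates 1 to 4. The 2 groups did not overlap, and the difference was 1.10 (SE 0.16, limma adjusted p = 0.0022). The probe lies at chr7:101802633-101802692 on the minus strand, in the coordinates of the array files (mouse build mm7). A further Tpp1 probe gave 1.04 (limma adjusted p = 0.00299).

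Ppt1, a thioesterase that removes palmitate from proteins, had 3.21, 2.82, 2.93 and 2.84 in wild type and 4.25, 3.63, 4.12 and 4.12 in the mutant at chr4:122303517-122303576. Every mutant array was above every wild-type array, by 1.08 in the mean (SE 0.17, limma adjusted p = 0.00282). Ctsz, cathepsin Z, a carboxypeptidase, had 0.01, -0.21, -0.29 and 0.07 in wild type and 1.18, 0.35, 0.94 and 1.12 in the mutant at chr2:174172121-174172180. The lowest mutant value, in replicate 2, was still above the highest wild-type value, and the difference was 1.00 (SE 0.20, limma adjusted p = 0.00642).

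The other 4 cathepsins had differences of 0.83 to 0.95. Ctsd, the aspartic protease cathepsin D, rose by 0.86 (SE 0.18, limma adjusted p = 0.00848) and Ctsh, which acts mainly as an aminopeptidase, by 0.83 (SE 0.22, limma adjusted p = 0.0194), both without overlap. Ctsc, dipeptidyl peptidase I, rose by 0.95 (SE 0.25, limma adjusted p = 0.0195), with mutant replicate 2 at -2.06 below wild-type replicate 4 at -1.93. That call ended with normexp background correction, where the difference was 0.59 (limma adjusted p = 0.0611), and without wild-type replicate 2.

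Ctsb, cathepsin B, a cysteine protease, had 2.30, 1.81, 1.82 and 2.46 in wild type and 3.35, 2.37, 2.95 and 3.07 in the mutant at chr14:58006948-58007007. The difference was 0.83 (SE 0.24, limma adjusted p = 0.0244), with mutant replicate 2 below wild-type replicate 4. With median scaling the Ctsb difference was 0.61 (limma adjusted p = 0.0689) and that of Ctsh 0.62 (limma adjusted p = 0.0569), both short of the threshold.

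Of the 5 lipid genes tested, 4 were higher, and the median difference was 0.54. Psap encodes prosaposin, the precursor of the saposins that present sphingolipids to their hydrolases, and is also known as a secretory product of Sertoli cells. Psap had 3.13, 2.86, 2.98 and 3.55 in wild type and 4.39, 3.60, 4.12 and 4.57 in the mutant at chr10:59820272-59820331. The groups were separated narrowly, by mutant replicate 2 above wild-type replicate 4, and the difference was 1.04 (SE 0.23, limma adjusted p = 0.0103).

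Asah1, acid ceramidase, had -0.65, -1.51, -1.22 and -0.36 in wild type and 0.31, -0.51, 0.11 and 0.30 in the mutant at chr8:40126754-40126813. It rose by 0.98 (SE 0.28, limma adjusted p = 0.0239), with mutant replicate 2 below wild-type replicate 4. Npc2, a soluble protein of the lumen that binds cholesterol, had 1.95, 1.63, 1.77 and 1.83 in wild type and 2.72, 2.01, 2.30 and 2.29 in the mutant at chr12:82757293-82757352. Its groups did not overlap, and the difference was 0.54 (SE 0.17, limma adjusted p = 0.0327).

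Smpd1, acid sphingomyelinase, rose by 0.54 (SE 0.17, limma adjusted p = 0.0343), with overlapping groups. With median scaling the calls of Asah1, Npc2 and Smpd1 ended, at differences of 0.77, 0.32 and 0.32. Gm2a, the activator protein that lifts GM2 ganglioside to its hydrolase, had 2.39, 1.95, 2.12 and 1.91 in wild type and 2.79, 2.39, 2.73 and 2.31 in the mutant at chr11:55067111-55067170. Its difference of 0.47 missed the threshold (SE 0.17, limma adjusted p = 0.0534), with mutant replicate 4 below wild-type replicate 1, and it passed under quantile normalization and cyclic loess at 0.66 and 0.70.

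Among the glycosidases 4 of 11 were higher and 7 did not pass, with a median of 0.40. Neu1, the lysosomal sialidase, had 0.68, 0.67, 0.52 and 0.63 in wild type and 1.66, 1.18, 1.55 and 1.78 in the mutant at chr17:33032250-33032309. The wild-type arrays lay close together and all mutant arrays lay above them, with a difference of 0.92 (SE 0.15, limma adjusted p = 0.00365). Man2b1, lysosomal alpha-mannosidase, had 1.59, 1.53, 1.44 and 1.83 in wild type and 2.42, 1.82, 2.21 and 2.71 in the mutant at chr8:83686189-83686248. It rose by 0.69 (SE 0.20, limma adjusted p = 0.0236), with mutant replicate 2 just below wild-type replicate 4, and the call ended with median scaling at 0.47 (limma adjusted p = 0.0732).

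Idua, the iduronidase that acts on heparan and dermatan sulfate, had -3.37, -3.04, -1.59 and -1.59 in wild type and -1.16, -1.15, -1.11 and -1.0 in the mutant at chr5:107864403-107864462. The wild-type arrays fell into a low pair, replicates 1 and 2, and a pair close to the mutant arrays, which lay within a narrow range. Its difference of 1.29 was the highest of the 30 and had the widest error (SE 0.39, limma adjusted p = 0.0295, 95% confidence interval 0.42 to 2.16). With cyclic loess it was 1.17 and did not pass (limma adjusted p = 0.0549).

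Glb1, lysosomal beta-galactosidase, had 0.02, -0.13, -0.15 and -0.14 in wild type and 0.55, 0.05, 0.26 and 0.47 in the mutant at chr9:114125114-114125173. The groups did not overlap, with mutant replicate 2 just above wild-type replicate 1, and the difference was 0.43 (SE 0.14, limma adjusted p = 0.0437). It did not pass with median scaling (0.21), with spike-in scaling (0.40) or with the mean of its probes.

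The 7 glycosidases that did not pass had differences from -0.18 to 0.49. Gaa, which degrades glycogen, differed by 0.49 (limma adjusted p = 0.104) and Gusb, beta-glucuronidase, by 0.40 (limma adjusted p = 0.108). Gla, alpha-galactosidase A, differed by 0.33, Manba, beta-mannosidase, by 0.30, and Fuca1, alpha-fucosidase, by 0.22 (limma adjusted p = 0.165, 0.394 and 0.254). The value nearest 0 was that of Naglu, which removes N-acetylglucosamine from heparan sulfate, at 0.01 (95% confidence interval -0.32 to 0.33, limma adjusted p = 0.973).

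Hexa, the alpha subunit of beta-hexosaminidase, was the 1 member below 0 that was not called. It had -0.18 (95% confidence interval -0.46 to 0.11, limma adjusted p = 0.287) at chr9:59590832-59590891. Its sign depended on the scaling: it was 0.15 under quantile normalization, 0.16 under cyclic loess and -0.40 with median scaling, where it passed as lower (limma adjusted p = 0.0441).

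The 3 sulfatases went different ways. Ids, which removes sulfate from iduronate in heparan and dermatan sulfate, had -0.62, -0.95, -0.96 and -0.36 in wild type and 0.50, -0.22, 0.17 and 0.57 in the mutant at chrX:65737809-65737868. All mutant arrays were above all wild-type arrays, by 0.98 in the mean (SE 0.21, limma adjusted p = 0.0091). Arsa, arylsulfatase A, which removes sulfate from sulfatide and from seminolipid, a sulfated lipid of male germ cells, had 5.90, 5.86, 5.85 and 5.66 in wild type and 5.10, 5.37, 5.24 and 4.68 in the mutant at chr15:89555513-89555572.

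The mutant Arsa arrays all lay below the wild-type arrays, with the lowest in replicate 4, and the difference was -0.72 (SE 0.17, limma adjusted p = 0.0115). It was -0.36 under quantile normalization (limma adjusted p = 0.0645) and -0.28 under cyclic loess (limma adjusted p = 0.113), where it was not called. Arsb, which acts on dermatan and chondroitin sulfate, had -3.26, -3.60, -3.44 and -3.15 in wild type and -2.42, -3.53, -2.90 and -2.69 in the mutant at chr13:91003852-91003909. Mutant replicate 2 lay within the wild-type range, and the difference of 0.48 did not pass (SE 0.23, limma adjusted p = 0.129). The log2 signal of Ids minus that of Arsa was -6.81 to -6.02 on wild-type and -5.59 to -4.11 on mutant arrays. Scaling an array by a constant leaves this quantity alone, but a difference that varies with signal, as described below, enters it. Because every mutant array had Ids above and Arsa below all wild-type arrays, these ranges could not overlap.

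Lamp2 and Lamp1, related and abundant proteins of the lysosomal membrane, also moved in opposite directions. Lamp2, a heavily glycosylated membrane protein that also takes part in autophagy, had 1.58, 0.86, 0.78 and 1.38 in wild type and 2.40, 1.52, 2.25 and 2.09 in the mutant at chrX:33497384-33497443. It rose by 0.92 (SE 0.24, limma adjusted p = 0.0186), with mutant replicate 2 below wild-type replicate 1. Without wild-type replicate 3, mutant replicate 1 or mutant replicate 3 the call ended, with an adjusted p of up to 0.0543 in limma.

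Lamp1, the related membrane protein, had 4.89, 5.14, 4.94 and 4.77 in wild type and 4.33, 4.68, 4.66 and 4.33 in the mutant at chr8:13149356-13149415. The mutant arrays lay below all wild-type arrays, by 0.43 in the mean (difference -0.43, SE 0.15, limma adjusted p = 0.0452). The fall was -0.07 under quantile normalization and -0.04 under cyclic loess, where it was not called, and the call also ended with spike-in scaling and in 6 of the 8 fits that left out 1 array. Lamp2 minus Lamp1 within an array ran from -4.28 to -3.32 in wild type and from -3.16 to -1.94 in the mutant. Those ranges do not overlap, and the change between their means was 1.35. Lamp1 was the brighter of the 2, so a difference that varies with signal enters this quantity too.

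Npc1, the membrane protein that exports cholesterol together with Npc2, had -3.50, -3.53, -3.75 and -3.34 in wild type and -3.01, -3.44, -3.14 and -2.74 in the mutant. Mutant replicate 2 lay within the wild-type range, and the difference of 0.45 did not pass (SE 0.17, limma adjusted p = 0.0651). Cln3, a membrane protein whose loss causes a juvenile form of neuronal ceroid lipofuscinosis, had -0.55, -0.55, -0.54 and -0.35 in wild type and -0.20, -0.33, -0.16 and -0.30 in the mutant at chr7:122668780-122668839. Its groups did not overlap, but the difference was 0.25 and did not pass (SE 0.12, limma adjusted p = 0.128).

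**Figure D2:**
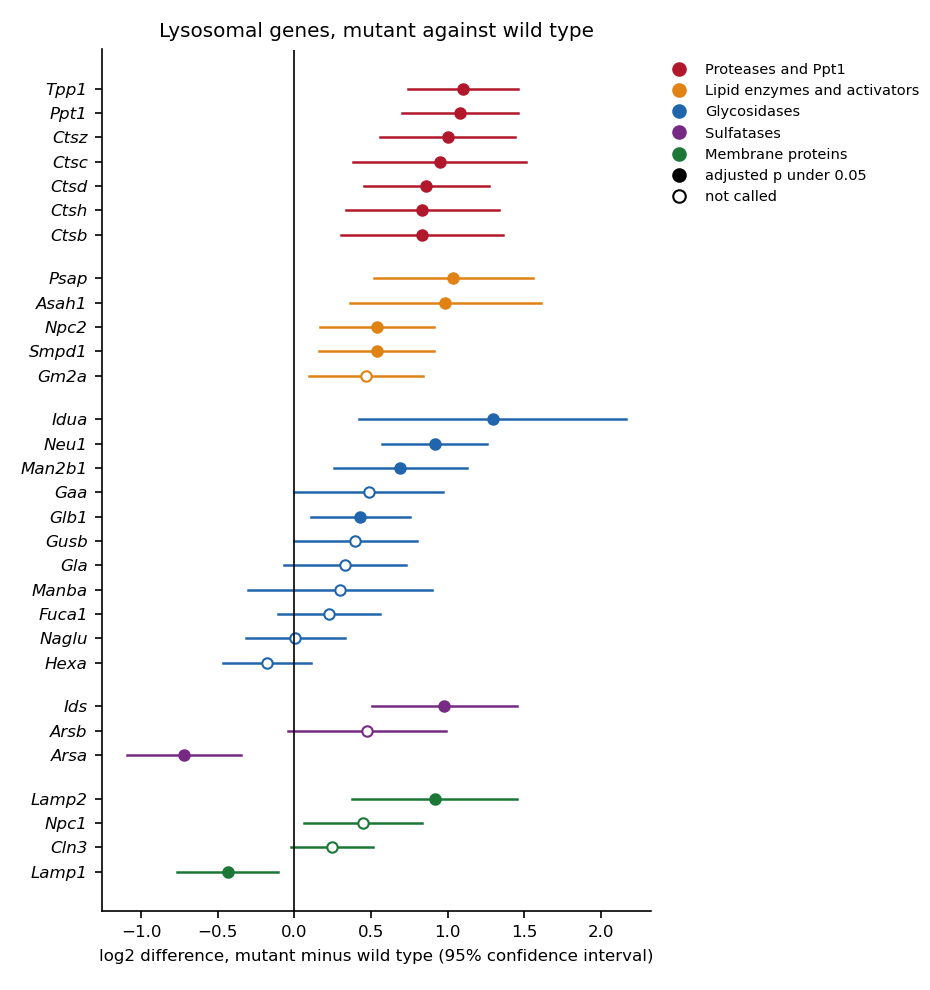
Log2 difference between mutant and wild type for the 30 tested lysosomal genes, ordered within their roles, with the 95% confidence interval from limma. Filled points passed the test and open points did not. The 6 proteases and Ppt1 all lie at 0.83 or above, and Arsa and Lamp1 are the 2 filled points below 0.

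In total 52 of the 57 probes passed the filter on dim signals. When each was tested on its own, 9 genes had passing probes that differed in whether they were called: Arsb, Cln3, Ctsb, Glb1, Gm2a, Ids, Lamp2, Ppt1 and Psap. Over all 33718 passing probes, 21.2% were higher and 10.8% were lower. The p-values in the next sentences are adjusted over these probes.

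Ppt1 differed most between its probes. The probe described above carries the accession of a cDNA clone, and another, 957 bases upstream on the same strand, carries that of the RefSeq transcript. The upstream probe had 3.23, 2.82, 2.85 and 2.66 in wild type and 3.22, 3.14, 3.06 and 3.11 in the mutant. It differed by 0.24, with overlapping groups (limma adjusted p = 0.225). The difference between the log2 signals of the 2 probes was -0.02 to 0.18 on wild-type arrays and 0.49 to 1.07 on mutant arrays. Of 2 dimmer Ppt1 probes, 1 gave 1.63 (limma adjusted p = 0.00265), clear of background on 2 of 4 wild-type arrays, and the other gave 1.19 (limma adjusted p = 0.0709).

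For Ids, a probe 9952 bases upstream gave 0.09 (limma adjusted p = 0.649), and another 19818 bases upstream gave 0.77 (limma adjusted p = 0.0289) but cleared background on 1 of 4 wild-type arrays. Lamp2 had a second called probe at 0.83 (limma adjusted p = 0.0224) and a dim one 3151 bases downstream at 0.14 (limma adjusted p = 0.509). For Cln3 the order was turned: a dimmer probe 6648 bases upstream gave 0.91 (limma adjusted p = 0.0154), with -3.25, -2.14, -2.34 and -2.70 in wild type and -1.70, -1.68, -1.71 and -1.72 in the mutant. Its mutant arrays lay almost on 1 value and above all wild-type arrays.

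A second Gm2a probe gave 0.66 and passed (limma adjusted p = 0.0143), and a second Arsb probe gave 1.24 (limma adjusted p = 0.0182) but cleared background on 1 of 4 wild-type arrays. The second probes of Psap and Ctsb, at 1.03 and 0.54, did not pass (limma adjusted p = 0.0501 and 0.065), nor did the 2 further Glb1 probes, at 0.65 and 0.35. Neu1, Ctsd and Ctsz each had a second probe that was also called, at 0.96, 1.04 and 0.84.

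**Figure D3:**
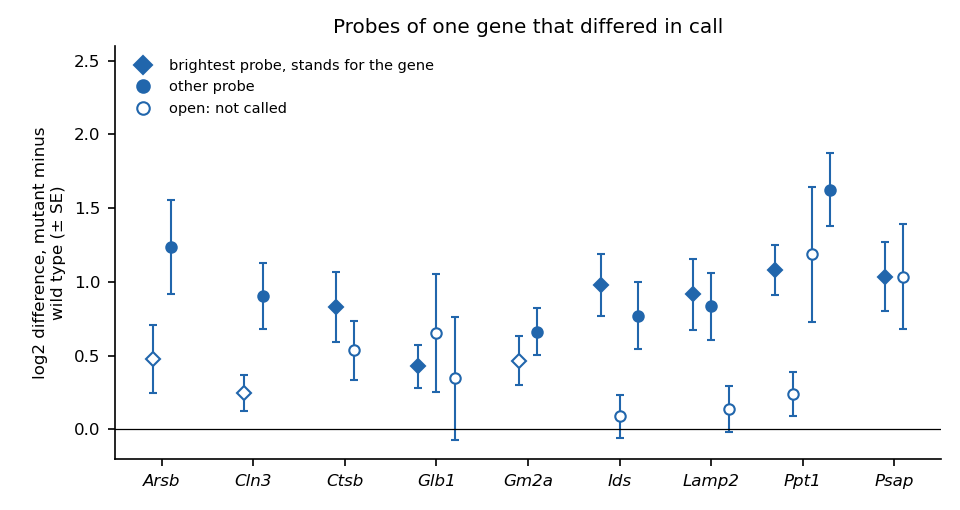
Log2 difference between mutant and wild type for each passing probe of the 9 genes whose probes differed in call, with its standard error from the fit over all probes. Diamonds are the brightest probe, which stands for the gene, and open symbols did not pass. The upstream Ppt1 probe lies at 0.24 beside the brightest Ppt1 probe at 1.08.

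The difference between genotypes varied with signal over the whole array. Among the 1347 genes with a mean log2 level over 4, the median difference was -0.44, and 40.8% were lower and 2.90% higher. Arsa and Lamp1 are the 2 members in this range. Of the 2673 genes between 2 and 4, 9.02% were higher and 30.8% lower, with a median of -0.36, while 6 of the 9 members there, Psap, Ppt1 and 4 others, were higher, with a median of 0.83. Between 0 and 2, 7 of 9 members were higher, beside 17.2% of all genes. Of the 7 members between -2 and 0, 4 were higher, beside 23.1% of all genes there. The 3 members between -4 and -2 were not called, in a range where 25.8% of all genes were higher and the median was 0.24.

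**Figure D4:**
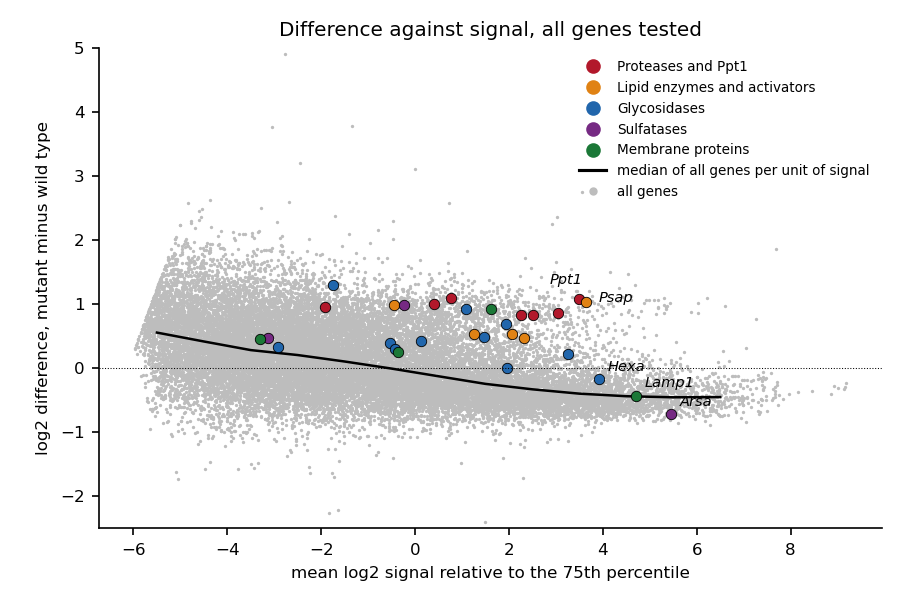
Log2 difference between mutant and wild type against mean log2 signal for all tested genes in grey, with the 30 lysosomal genes coloured by role and the median of all genes as a black line. 1 gene lies outside the axis range of -2.5 to 5. Ppt1 and Psap stand about a log2 unit above 0 where the median of all genes is below 0, and Lamp1 and Arsa lie among the bright genes.

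Promoters were read because many lysosomal genes carry the E-box-like CLEAR element bound by TFEB and its relatives, which switch on lysosome genes. Of the 31 members, 27 matched the promoter table from RefSeq (build GRCm38.p6, 250 bases before to 50 after each start), and Asah1, Ctsb, Ctsh and Npc1 did not. The palindrome CACGTG was in the promoters of 8 of the 27 (29.6%) and in 8.09% of the 27025 genes with a promoter. The longer form TCACGTG, or CACGTGA on the other strand, which contains CACGTG, was in the same 8 genes and in 4.29% of all. CACGTG with GT before it and AC after it, a palindrome that contains both, was in Cln3 alone among the members and in 0.37% of all. The stretches that hold the matches are printed 5′ to 3′ on the gene's strand, with CACGTG in capitals, because they include both members that fell. Only copies that lie wholly before the start were located for printing. Each of these is shown but 1, a further copy in Ctsd at position -245 from the start:
Lamp1: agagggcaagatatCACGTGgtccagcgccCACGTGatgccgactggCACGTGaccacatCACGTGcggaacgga
Arsa: cttcaactcagtgtCACGTGttgtctgctc
Ctsd: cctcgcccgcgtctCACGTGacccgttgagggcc
Glb1: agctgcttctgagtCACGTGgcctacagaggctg
Cln3: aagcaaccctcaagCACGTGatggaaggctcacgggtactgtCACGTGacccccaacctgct
Gla: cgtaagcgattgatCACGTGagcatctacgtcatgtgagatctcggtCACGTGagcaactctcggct
Gaa: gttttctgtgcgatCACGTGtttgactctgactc
Naglu: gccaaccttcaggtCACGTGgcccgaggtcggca

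The stretch of Lamp1 is chr8:13159086-13159160 on the plus strand and holds 4 copies in the 75 bases before the start. That of Arsa is chr15:89477425-89477454 on the minus strand, the 30 bases before its start. The others are Ctsd at chr7:142387906-142387939 (minus), Glb1 at chr9:114401016-114401049 (plus), Cln3 at chr7:126583338-126583399 (minus), Gla at chrX:134601180-134601246 (minus), Gaa at chr11:119267809-119267842 (plus) and Naglu at chr11:101070007-101070040 (plus). Of these 8 genes, Ctsd and Glb1 were higher in the mutant, Arsa and Lamp1 were lower, and Cln3, Gla, Gaa and Naglu were not called. Of the genes called higher in every fit that left out 1 array, Ctsd had a match in this window, and Tpp1, Ppt1, Ctsz, Neu1, Psap and Ids had none. A match describes the letters only.

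Further lysosomal genes outside the 31 were read from lists. Of 33 other soluble hydrolases and their helpers, 21 were higher (63.6%) and 2 lower (6.06%), with a median of 0.70. Ctsk, cathepsin K, rose by 1.23 (SE 0.18, limma adjusted p = 0.00225), but not with normexp, where it was 0.17. Galc, which removes galactose from galactosylceramide and from the precursor of seminolipid, had 3.30, 3.23, 3.21 and 2.89 in wild type and 1.69, 1.38, 0.84 and 1.84 in the mutant. Its groups were far apart, with a difference of -1.72 (SE 0.22, limma adjusted p = 0.00122), and it passed under every alternative. Man2b2, the other hydrolase that fell, was at -0.48, and Galns, a sulfatase of keratan sulfate, had the largest p, at -0.04 (limma adjusted p = 0.846).

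Of 26 other lysosomal membrane proteins, 10 were higher (38.5%) and 3 lower (11.5%), with a median of 0.34. Scarb2, the receptor that carries glucocerebrosidase to the lysosome, had -1.59, -2.0, -1.90 and -1.48 in wild type and -0.51, -1.02, -0.59 and -0.64 in the mutant. It rose by 1.05 without overlap (SE 0.17, limma adjusted p = 0.00333). Lamp3 fell by 1.10 on the log2 scale (SE 0.15, limma adjusted p = 0.00188), but was not called with the mean of its probes, at -0.23. Abcb9, a peptide transporter, and Tmem175, a potassium channel, were the other 2 lower genes, at -0.81 and -0.58. Slc29a3, a nucleoside transporter, differed by 0.0025.

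Of 22 genes of the V-ATPase and its accessory proteins tested, of 24 listed, 5 were higher (22.7%) and 2 lower (9.09%), shares near those of all genes at 22.3% and 13.2%. Their median was 0.01, which was -0.21 with median scaling, -0.02 with spike-in scaling and -0.06 with normexp. The accessory protein gene Atp6ap2 rose by 0.72 and the subunit gene Atp6v0e by 0.71 (limma adjusted p = 0.00827 and 0.00915), while Atp6v0c, the proteolipid ring, was at -0.05 (limma adjusted p = 0.861). The lower genes were Atp6v0a2 and Atp6v1d, at -0.36 and -0.53.

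Of 18 genes of mannose 6-phosphate tagging and transport to the lysosome, 3 were higher (16.7%) and 6 lower (33.3%), against 22.3% and 13.2% of all genes, with a median of -0.35. The 3 that rose were Gnptab and Nagpa, enzymes that make the tag, at 0.77 and 0.60 (limma adjusted p = 0.0065 and 0.00987), and M6pr, a receptor for it, at 0.43 (limma adjusted p = 0.0407). Gnptab and Nagpa were not called with normexp. The 6 lower genes, Gga1, Ap1m1, Ap3b1, Vps26a, Sort1 and Vps29, encode adaptors, retromer subunits and the receptor sortilin, and ranged from -0.77 to -0.42. Under quantile normalization and under cyclic loess 1 gene of this list was lower and 3 were higher. Of all genes, 10.3% were lower and 14.8% higher under quantile normalization, and 8.59% and 16.9% under cyclic loess. Ap1s1, an adaptor subunit, was at 0.08 (limma adjusted p = 0.621).

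Among 19 tested genes of the TFEB family and of mTORC1 control at the lysosome, 3 were higher (15.8%) and 1 lower (5.26%), both shares below those of all genes. Their median was 0.06, and -0.16 with median scaling. Rragb, a Rag GTPase, rose by 1.16 (limma adjusted p = 0.0107) and the TFEB relative Tfec, named Tcfec on the array, by 0.93 (limma adjusted p = 0.0251), a call that held in 11 of 22 alternatives, while Tsc2, an inhibitor of the pathway, was at -0.02 (limma adjusted p = 0.941). Of 28 autophagy genes tested, 5 were higher and none lower, a share of 17.9% beside 22.3% of all genes. Atg16l1 rose by 0.80 and Atg4a by 1.32 (limma adjusted p = 0.00389 and 0.00416), Atg4a not with normexp, and Wipi1 was at -0.01. The median of the autophagy list was -0.08, and turned to 0.06 under quantile normalization and 0.10 under cyclic loess. With median scaling 10 of these genes were lower and 2 higher, where 28.7% of all genes were lower. Without mutant replicates 1 and 4, 2 of the other hydrolases were higher and 1 lower, and 2 of the other membrane proteins were lower. In that fit 1 autophagy gene was higher, and no gene of the other 3 lists was called, beside 4.61% of all genes higher and 0.985% lower.

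Markers of the testis cell types were read on the same arrays, and their counts stand beside 22.3% of all genes higher and 13.2% lower. Of 18 Sertoli cell markers 15 were higher and none lower, and their mean log2 level ran from 0.29 to 0.57 on wild-type and from 1.02 to 1.52 on mutant arrays. Of 9 Leydig cell markers 5 were higher (mean levels 1.59 to 2.38 and 2.52 to 3.11), and of 14 macrophage markers 10 were higher (-0.74 to -0.64 and -0.42 to 0.60). Of 12 spermatocyte markers 6 were lower and none higher, and their mean level ran from 3.04 to 3.18 on wild-type and from 2.30 to 2.96 on mutant arrays. Of 13 spermatid markers 5 were lower (38.5%), at mean levels of 5.70 to 5.98 and 5.44 to 5.72. The median level of these 13 was 5.35, and 40.8% of all genes with a level over 4 were lower. Under quantile normalization and under cyclic loess no spermatid marker was lower and 1 spermatocyte marker was lower, with 1 higher under cyclic loess. Of all genes, 10.3% and 8.59% were lower in these 2 settings. Of 11 markers of peritubular and endothelial cells 2 were higher (18.2%), with overlapping mean levels.

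The mean log2 level of the lysosomal members was 0.91, 0.65, 0.69 and 0.92 in wild type and 1.57, 1.04, 1.37 and 1.45 in the mutant, with replicate 2 the lowest mutant array. That array was also the lowest for the other hydrolases, the other membrane proteins, the TFEB and mTORC1 genes and the autophagy genes. Among the markers it was the lowest for Sertoli, Leydig, macrophage and peritubular and endothelial cells, but not for the other lists. On wild-type arrays the Sertoli mean was lowest in replicate 4 (0.29), where the members' mean was highest. The Leydig mean was lowest in replicate 2, like the members', and the macrophage mean was highest in replicate 4. The part of these cell types in the members' differences was not tested. Of 12 epididymal genes, which mark tissue beside the testis, 7 were tested and 3 rose. The mean level of the 7 was -3.13 to -2.77 in wild type but 0.02, -1.94, -2.25 and -0.30 in mutant replicates 1 to 4. The 3 that rose, Crisp1, Cd52 and Spink8, were highest in replicates 1 and 4, as was Rnase10, but Cst11, Ovch2 and Lcn9 were not. Without mutant replicates 1 and 4, where the mean of the 7 was highest, 25 of the 30 members were still above 0, with a median of 0.41. Neu1, Ppt1 and Tpp1 then remained called as higher, with 2 mutant arrays left and 4.61% of all genes higher, and no member was lower, beside 0.985% of all genes.

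**Figure D5:**
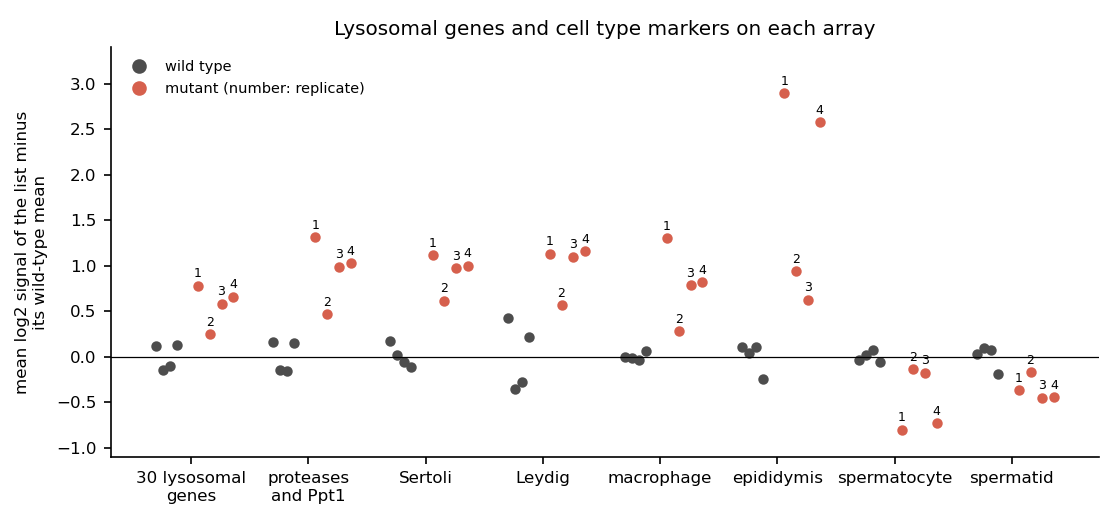
Mean log2 signal per array of the 30 lysosomal genes, of their 6 proteases with Ppt1 and of 6 marker lists, each minus its mean over the 4 wild-type arrays. Dark points are wild-type arrays and red points mutant arrays, numbered by replicate. The means of the lysosomal genes and of the Sertoli, Leydig and macrophage markers are lowest in mutant replicate 2 among the mutant arrays. The mean of the epididymal genes is highest in replicates 1 and 4.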

How the data were processed

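RNA of 4 wild-type and 4 Vrk1 mutant testis samples was measured on single-colour arrays, grouped by the labels. The deposited intensity is the background-subtracted, detrended signal, unscaled between arrays per the file headers, from Agilent Feature Extraction 9.5.3.1 per the submitters' processing notes. The deposited value table held the same values (largest relative difference 0). Each signal was divided by the 75th percentile of its array (controls left out), given a floor of 0.0144 and taken as log2. Outlier spots were dropped and repeated probes averaged. A probe was kept when at least 4 of 8 arrays had it well above background and each group had at least 3 values (33718 probes), and each gene was read from its brightest such probe. Genotypes were compared with lmFit and eBayes of limma 3.58.1 (R 4.3.3), two-sided, genotype the only term, with Benjamini-Hochberg adjustment over 23349 genes and a threshold of 0.05. The fit and its adjustment were tested on simulated data, drawn as independent normal values after scaling, floor, filter and choice of probe. Those earlier steps were not tested in this way. The number of arrays limits the precision, and no spot was saturated.

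The members and lists were chosen with earlier results of these data known. Values by array are given for the 3 members per role with the smallest p and for those whose probes differed in call. Each list of lysosomal pathway genes names its 2 smallest and its largest p. Marker lists are given by counts and mean levels, and the tested epididymal genes are also named. Other list genes named, M6pr and the lower genes among them, and the differences within an array were picked with their values in view. Alternatives were median, spike-in (231 features), quantile and loess scaling, normexp, other filters and floors, other probe rules, array weights, a replicate block and left-out arrays. Of the 57 member probes, 44 had an accession in the RefSeq gene table, all under the same symbol. Probes were not placed in exons, because the annotation given is of another build than mm7.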

Additional observations from a re-analysis of the deposited data

Results flagged for a closer look

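In 60 groups of 4 arrays, 1 per member and genotype, 4 held an array far from the other 3, where chance gives about 1 in 20. All 4 were wild-type arrays. Wild-type replicate 1 stood apart for Glb1, at a log2 signal of 0.0233 beside -0.15 to -0.13 in the others, and for Gla, at -2.59 beside -3.27 to -3.22. Wild-type replicate 4 stood apart for Cln3, at -0.35 beside -0.55 to -0.54, and for Gusb, at -1.06 beside -0.67 to -0.61.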

How the results depend on the processing

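Over 22 alternatives, 536 of the 660 member results kept their direction and their side of the threshold, 86 lost a call, 26 gained one and 12 changed sign. The 22 include the deposited value table, which held the same values and so could change no result. Median scaling gave 10 higher members, beside 14.1% of all genes. The median of the members was then 0.32, which was 0.50 above the median of all genes, as with the 75th percentile. Apart from values at the floor, that change of scaling shifts every difference by the same amount, so the distance of 0.50 was fixed in advance. Spike-in scaling gave 14 higher and 1 lower, beside 17.9% and 8.1% of all genes. Quantile normalization gave 19 and 0, beside 14.8% and 10.3% of all genes. Cyclic loess gave 18 and 0 with a median of 0.73, beside 16.9% and 8.59% of all genes. Of all genes called, 62.7% were higher, but 32.9% with median scaling and 41.3% with normexp. Leaving out 1 array gave 8 to 19 higher and 1 to 2 lower members and a median of 0.49 to 0.67. Of all genes, 15.6% to 22.5% were higher and 6.77% to 15.9% lower in these fits. Without mutant replicates 1 and 4, 3 were higher and 0 lower, beside 4.61% and 0.985% of all genes. Naglu turned to -0.21 with median scaling, -0.0225 with spike-in scaling, -0.0434 with normexp, -0.0436, -0.0705, -0.00077 and -0.0299 without wild-type replicate 2, wild-type replicate 3, mutant replicate 1 and mutant replicate 4 (0.0734 at the highest, without wild-type replicate 4), and -0.0599 without both mutant replicates 1 and 4. Hexa turned to 0.15 and 0.16 under quantile normalization and loess, Arsb to -0.0301 with normexp and Manba to -0.0505 without mutant replicates 1 and 4. The cause was not tested. Neu1, Psap, Lamp2, Tpp1, Ppt1, Ctsz, Ctsd and Ids passed under all 5 scaling and background settings, and Neu1, Ppt1 and Tpp1 under every alternative run. No alternative read Ppt1 from its upstream probe alone, which differed by 0.24 and was not called (limma adjusted p = 0.225 over all passing probes). With the replicate number as a block, 21 members were higher and 2 lower, beside 27.6% and 19.7% of all genes. Same-numbered arrays correlated at 0.28, 0.239, 0.0792 and 0.594 in their deviations from the group means. Each mutant array correlated best with the wild-type array of its number, while wild-type replicate 3 correlated best with mutant replicate 2 (0.193). The labels do not say whether the numbers mark pairs, and the main fit did not pair them.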

Other observations

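Lipa may be present under an older name. A probe named Lip1 in the array files carries an accession that the RefSeq gene table assigns to Lipa, which hydrolyses cholesteryl esters and triglycerides in the lysosome. It had log2 signals of -1.69, -2.40, -2.41 and -2.33 in wild type and -1.06, -1.47, -1.22 and -1.04 in the mutant, and the groups did not overlap. The difference was 1.01 (SE 0.19, limma adjusted p = 0.00617), and by the naming rule it is not counted among the members. A second probe named Lip1 carries an accession that the table does not assign to Lipa, and it was too dim to be tested.

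A partner of 2 members within a protein complex was looked at after its values had been seen. Ctsa, the protective protein that forms a complex with Neu1 and Glb1 and is named Ppgb on the array, rose by 0.83 (SE 0.21, limma adjusted p = 0.0153), with no overlap, beside 0.92 for Neu1 and 0.43 for Glb1. The p-values here are adjusted over all genes tested, and no test compared 1 gene's difference with another's.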
